A study of Rattus norvegicus with 6 samples.

Results

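The regions described here are the places in the rat genome where CUT&Tag gave a peak in every one of 6 libraries of cultured tenocytes, the fibroblast-like cells of tendon. The peaks of the 6 deposited lists were pooled, peaks overlapping by 1 bp or more were merged, and the regions were chosen by these calls alone: each holds a peak from every list. There were 7268 such common regions among 176698 regions in all (4.11%), and they spanned 9.36 Mb. The libraries profile 3 histone lactylation marks, each in cells given 20 mM lactate and in untreated cells (control): H3K9la lactate and H3K9la control, H4K8la lactate and H4K8la control, and H4K16la lactate and H4K16la control. The groups follow the sample titles and the treatment entry of each sample; a free-text protocol names 20 mM lactate for all 6 libraries, and the lactate and control values below rest on the titles and entries being right. All cells are labelled as wild-type rat tenocytes from tendon. The sources used here do not give strain, sex, age, number of animals or duration of treatment. Each group is 1 library, so differences between conditions could not be set against a spread between replicates and were not tested. Intervals cover counting error or the number of regions only. The submitters' stated aim was to link histone lactylation to the genes it regulates.

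Histone lactylation places a lactyl group, made from lactate, on a lysine. H3K9, H4K8 and H4K16 are lysines of the N-terminal histone tails that can also be acetylated, and histone lactylation has been described at promoters and enhancers of active genes. In CUT&Tag an antibody tethers the transposase Tn5 to chromatin carrying the mark. Tn5 also cuts open chromatin readily, so open sites can give fragments with any antibody. Positions are those of build rn7, counted from 1. The gene table and sequences at hand describe another assembly, so no gene, exon, intron or sequence is assigned to a region here, and the tenocyte label could not be checked against marker genes.

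Common regions took up a small share of every peak list but most of its strong peaks, as a rule that needs 6 calls would select. They held 16.03% of the peaks with lactate (Wilson 95% interval 15.7 to 16.4) and 12.2% in control (11.9 to 12.4) for H3K9la. For H4K8la the shares were 17.4% with lactate and 12.2% in control, and for H4K16la 11.9% and 18.2%. Among peaks with a −log10 q of at least 10, the shares were 78.4% with lactate and 58.5% in control for H3K9la, 87.0% and 66.3% for H4K8la, and 66.9% and 82.0% for H4K16la. List length, which bounds the first of these shares, ran from 40681 to 62563 peaks. The lists hold no read totals, and depth was judged by the genome-wide background recovered from them, in fragments covering an average base. For H3K9la this background stood at 1.88 with lactate and 2.17 in control, for H4K8la at 1.55 and 1.32, and for H4K16la at 2.84 and 1.53. H4K16la lactate was therefore the deepest library and H4K8la control the shallowest.

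Each common region was described in each library by its strongest peak. The deposited fold compares the pileup of fragments at the summit with a local background, the coverage of the surrounding stretch, after adding 1 to both. At the 7268 regions the median H3K9la fold was 4.25 with lactate and 4.29 in control, against 4.61 and 4.98 for H4K8la, and 4.21 and 4.75 for H4K16la. Median H3K9la −log10 q was 5.42 with lactate and 7.60 in control, against 5.85 and 8.75 for H4K8la, and 6.74 and 6.56 for H4K16la. The folds thus differed little between libraries, and −log10 q did not run in the same order. As the rule selects, values were higher than in regions found in 1 library only, where the median fold lay between 3.23 and 3.601 in the 6 libraries.

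The libraries stood further apart once the summit was set against the genome-wide background. At the median region the summit pileup reached 10.6 times that background with lactate and 12.5 times in control for H3K9la. It was 12.9 times with lactate and 19.7 times in control for H4K8la, and 8.80 and 13.7 times for H4K16la. The surroundings of the peaks differed as well. For H3K9la the median local background stood at 2.08 times the genome-wide one with lactate and 2.44 times in control, for H4K8la at 2.21 and 3.12 times, and for H4K16la at 1.84 and 2.33 times. Every mark thus had the lower median around common regions in its lactate library, and H4K8la control had the highest of all 6. The box plots of the members by library show these levels.

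**Figure D1:**
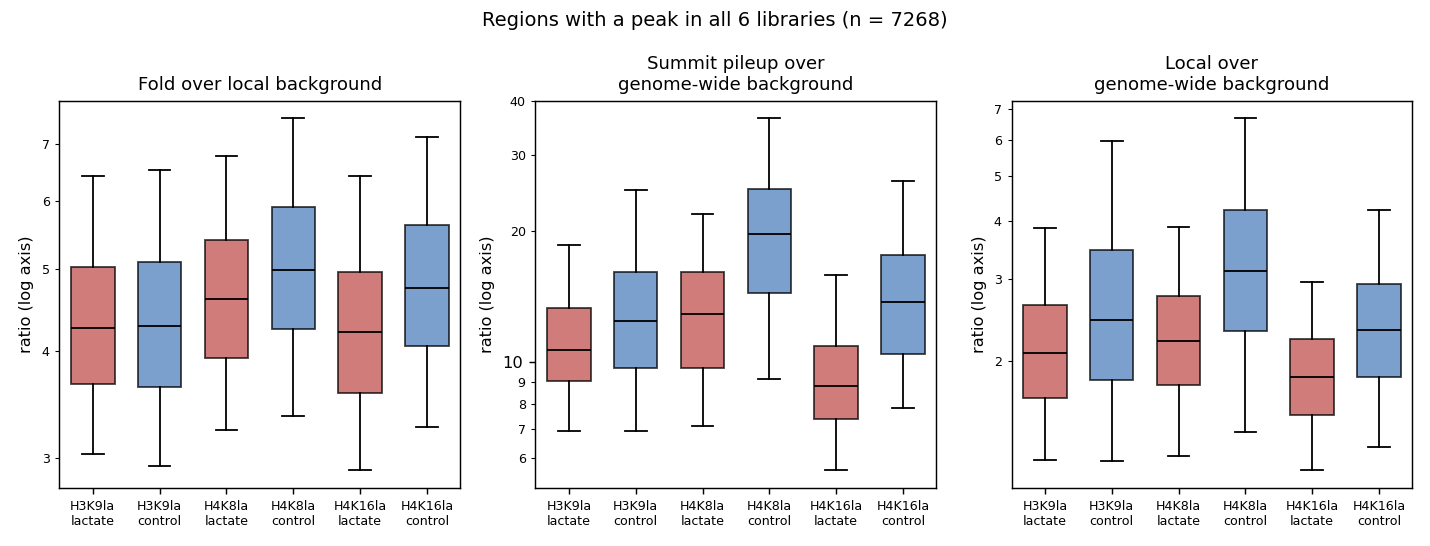
Fold over local background, summit pileup over genome-wide background and local over genome-wide background (ratios on log axes) at the 7268 regions with a peak in all 6 libraries, with lactate in red and control in blue. Lines are medians, boxes quartiles and whiskers the 5th and 95th percentiles of regions; the median local background was, for H4K8la, 2.21 with lactate and 3.12 in control.

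The region of highest mean −log10 q lay on chromosome 1 from 154403659 to 154404088. It was 430 bp wide, and its 6 summits fell within 14 bp of each other. For H3K9la it had a fold of 20.8 with lactate and 17.7 in control, against 20.3 with lactate and 19.8 in control for H4K8la and 20.7 and 19.4 for H4K16la. Fragments over the summit numbered 204 with lactate and 153 in control for H3K9la, 176 and 136 for H4K8la, and 388 and 153 for H4K16la. Relative to the genome-wide background the log2 ratio of lactate over control was 0.62 for H3K9la (exact 95% counting interval 0.31 to 0.93), 0.14 for H4K8la (-0.19 to 0.47) and 0.45 for H4K16la (0.18 to 0.73). The lactate library was thus the higher one here for H3K9la and H4K16la, against the direction of most common regions, while the fold, which also takes in the local background of 3.56 to 6.26 times the genome-wide one, differed less.

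Of the 8 strongest common regions, 3 sat in stretches whose coverage was raised more than 10 times in every library. One, on chromosome 3 from 2252034 to 2253252, had a local background of 27.1 times the genome-wide one with lactate and 16.7 times in control for H3K9la, 23.3 and 19.2 times for H4K8la, and 20.6 and 25.4 times for H4K16la. Another on chromosome 1 from 209640248 to 209641544 ran from 13.5 to 21.5 times across libraries, and the region on chromosome 19 from 13769765 to 13771002 from 12.1 to 19.2 times. Their folds were low for their q, between 4.59 and 7.76. In all 7 common regions were raised over 10 times in all 6 libraries, in only 3 places. Chromosome 3 had further ones from 2239469 to 2240220 (59.4 to 88.5 times) and from 2244334 to 2245442 (52.2 to 78.1 times). Chromosome 19 had them from 13771670 to 13772352 (15.9 to 23.1 times) and from 13775249 to 13776530 (13.6 to 18.4 times). No list of artefact-prone regions was applied, and whether their signal belongs to the marks was not tested.

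The other strong regions had higher folds and a lower local background, at most 5.28 times the genome-wide one beside the region ranked first. Chromosome 19 from 22507281 to 22508042 had a fold of 13.1 with lactate and 15.4 in control for H3K9la, 13.5 and 12.8 for H4K8la, and 13.1 and 13.8 for H4K16la, with a local background of 1.78 to 3.22 times the genome-wide one. Chromosome 12 from 30809399 to 30810398 gave a fold of 9.34 with lactate and 12.3 in control for H3K9la. For the H4 marks its folds were higher, 14.03 with lactate and 12.7 in control for H4K8la and 15.2 and 14.9 for H4K16la. On chromosome 3 from 2221251 to 2223241 the 6 summits fell within 17 bp and the fold ran from 8.19 in H4K8la control to 11.6 in H3K9la control. On chromosome 20 from 3541703 to 3542995 the folds kept within 10.7 and 11.6 although the summits of the 6 libraries spread over 670 bp.

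Among the 2785 common regions with a local background of 3 times the genome-wide one or less in every library, the best supported was chosen by the lowest of its 6 −log10 q values. It lay on chromosome 5 from 25601252 to 25602408, with a −log10 q of 17.4 with lactate and 19.9 in control for H3K9la, 23.4 and 18.6 for H4K8la, and 20.6 and 23.1 for H4K16la. The 6 values lay within 17.4 and 23.4, and the summits fell within 54 bp. On chromosome 8 from 123817482 to 123818672 the summits fell within 5 bp, with a fold of 11.3 with lactate and 9.62 in control for H3K9la, 8.21 and 9.29 for H4K8la, and 7.56 and 8.28 for H4K16la. On chromosome 15 from 78484773 to 78485879 the fold was lower with lactate for each mark, at 8.63 against 9.61 in control for H3K9la, 7.77 against 11.8 for H4K8la, and 7.67 against 9.05 for H4K16la. The regions at 86204299 to 86205256 of chromosome 4, 19643446 to 19644418 of chromosome 16 and, on chromosome 17, from 66936803 to 66938214 completed the first 6, with a lowest −log10 q of 17.2, 16.3 and 14.7.

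**Figure D2:**
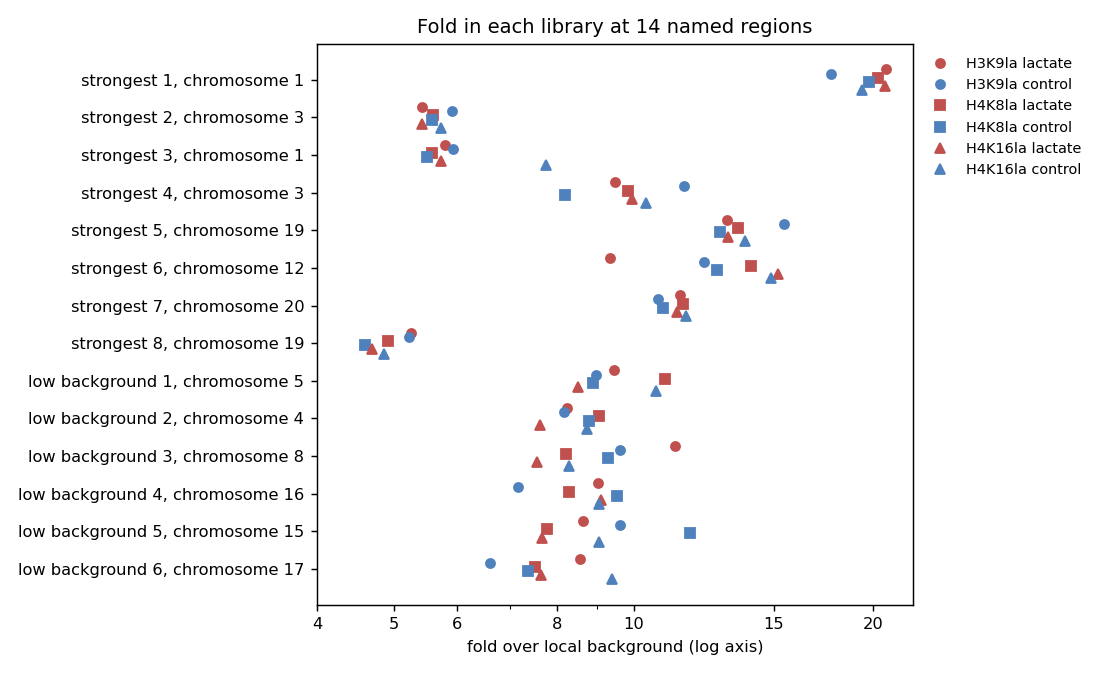
Fold over local background (log axis) in each library at the 8 common regions of highest mean −log10 q and at the 6 of highest lowest −log10 q among those of low local background; red is lactate, blue control, and the symbol gives the mark. The region ranked first lies between 17.7 and 20.8 in every library, and raised stretches (ranks 2, 3 and 8) have low folds.

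Lactate over control was compared at the same regions for each mark. By the deposited fold the medians were near 0 for H3K9la, whose sign depends on the settings, and below 0 for the H4 marks. The median log2 ratio was -0.0043 for H3K9la (95% interval of the median over regions -0.013 to 0.0053), -0.12 for H4K8la (-0.13 to -0.11) and -0.17 for H4K16la (-0.18 to -0.17). The fold was lower with lactate at 50.6% of the common regions for H3K9la, 63.9% for H4K8la and 71.1% for H4K16la. Among all regions with a peak of the mark in both conditions the shares were 44.6%, 59.1% and 70.0%. A change of 1.5-fold or more was taken as the limit for a call. For H3K9la 236 regions (3.25%) were higher and 224 (3.08%) lower with lactate, against 4.10% and 2.30% of all 21613 regions with an H3K9la peak in both conditions. For H4K8la 144 (1.98%) were higher and 596 (8.20%) lower, against 2.27% and 7.0% of 18439 regions. For H4K16la 82 (1.13%) were higher and 709 (9.76%) lower, against 1.12% and 9.02% of 17650 regions. For H4K16la the size depends on the settings: the median was -0.31 with the deeper library scaled to the shallower one and -0.28 without the added 1. Without the added 1, 46 regions (0.633%) were higher and 1252 (17.2%) lower, against 0.472% and 20.5% of the 10382 other regions with both peaks. By the deposited fold the shares were near the background for H4K8la and H4K16la, and for H3K9la like shares of the common regions were higher and lower.

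Against the genome-wide background the summits of the common regions were lower with lactate for all 3 marks. The median log2 ratio of summit pileup was -0.22 for H3K9la, -0.60 for H4K8la and -0.61 for H4K16la. For H3K9la 292 regions (4.02%) were 1.5-fold or more higher and 1432 (19.7%) lower, against 4.19% and 19.3% of all regions with both peaks. For H4K8la 100 (1.38%) were higher and 3721 (51.2%) lower, against 1.61% and 46.3%. For H4K16la 26 (0.358%) were higher and 3795 (52.2%) lower, against 0.374% and 43.0%. The lower summit was thus a general feature of shared peaks, with a larger share at the common regions for both H4 marks. The lactate library was the deeper one for H4K8la and H4K16la and the shallower one for H3K9la. The part of depth in these ratios was not tested.

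The local background, the coverage around the peak, was lower with lactate as well. If IgG reads entered peak calling, which the sources used here leave unsaid, this value would come partly from them and would not be the signal of the mark alone. Its median log2 ratio at the common regions was -0.26 for H3K9la (-0.27 to -0.25), -0.51 for H4K8la (-0.52 to -0.50) and -0.33 for H4K16la (-0.34 to -0.32). Without regions raised over 3 times in any library the medians were smaller, -0.11, -0.27 and -0.19. That filter uses the values that form the ratio. For each mark more regions were raised over 3 times in control than with lactate, for H4K8la 53.9% and 17.2%. The smaller medians are thus in part set by the filter. At regions whose 6 peaks all reach a −log10 q of 5 the H3K9la median was -0.15. Over all common regions the local background was lower with lactate at 76.9%, 90.3% and 88.0%. Among all regions with both peaks the shares were 78.2%, 86.1% and 77.6%. For H3K9la 76 regions (1.05%) were 1.5-fold or more higher and 1399 (19.2%) lower, against 0.814% and 24.4% of all regions with both peaks. For H4K8la 79 (1.09%) were higher and 3020 (41.6%) lower, against 1.07% and 40.8%. For H4K16la 2 (0.0275%) were higher and 1362 (18.7%) lower, against 0.125% and 11.7%. Common regions thus had a smaller share lower than shared peaks at large for H3K9la, a like share for H4K8la and a larger one for H4K16la. Summit and surroundings were lower together, and the fold is built from both. The plot of log2 ratios sets the measures side by side.

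For the H4 marks the local background differed more between conditions where coverage was high, and for H3K9la this depended on the ranking. The recovered local background has a floor at the genome-wide one. From 4839 peaks in H4K16la control to 10977 in H4K8la control lay exactly on it. Regions near this floor in both libraries have a ratio near 0, so the trend is in part set by the measure. Common regions were ranked by their mean log2 local background in the 4 libraries of the other marks, so that the mark compared did not enter the ranking, and cut into 5 groups of equal size. For H4K8la the median log2 ratio was -0.69 in the best covered group and -0.32 in the least covered one. In the best covered group its local background was 3.31 times the genome-wide one with lactate and 5.19 times in control, and in the least covered one 1.54 and 1.91 times. For H4K16la the ratio was -0.48 in the best covered and -0.14 in the least covered group, and for H3K9la -0.33 and -0.22. Ranked by summit pileup in the other marks instead, H3K9la ran the opposite way, with -0.19 in the highest and -0.33 in the lowest group, against -0.57 and -0.39 for H4K8la and -0.49 and -0.15 for H4K16la. In the first ranking the fold ratio of H3K9la was -0.0018 in the best covered and 0.0021 in the least covered group, that of H4K8la -0.10 and -0.13, and that of H4K16la -0.21 and -0.12.

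The lactate ratios of the marks correlated in the surroundings and hardly by fold. Across the 7268 regions Spearman's rho between the lactate ratios of the local background was 0.45 for H3K9la with H4K8la, 0.42 for H4K8la with H4K16la and 0.22 for H3K9la with H4K16la. For the fold the corresponding values were 0.020, -0.0099 and 0.011, and for summit pileup over genome-wide background they lay between 0.11 and 0.18. Summits mostly hold few fragments, and counting error lowers rho for the measures that use them. The contrast with the local background thus does not show that the marks differ at summits. Each ratio comes from its own pair of mark libraries, but the regions share sequence composition and mappability, and neighbouring regions can share a local window. If IgG reads entered peak calling, the marks could also share part of their local background, and its ratios would not be separate. Over the 5830 regions more than 20 kb from any other the values for the local background were 0.44, 0.40 and 0.20. The local background was lower with lactate for all 3 marks at 4834 regions (66.5%), and higher for all 3 at 175. By the fold 1719 regions (23.7%) were lower and 372 (5.12%) higher in all 3 marks. Taken singly, the marks were lower at 50.6%, 63.9% and 71.1% of the common regions. Such counts can therefore arise from unrelated marks and do not show agreement between them. In 1 region alone the fold was 1.5-fold or more lower in all 3. That region, member6147, lies on chromosome 16 from 3261484 to 3262396 and was picked out after its values were seen. Its H3K9la fold was 3.68 with lactate and 5.86 in control, against 3.88 and 6.02 for H4K8la, and 2.90 and 4.73 for H4K16la.

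**Figure D3:**
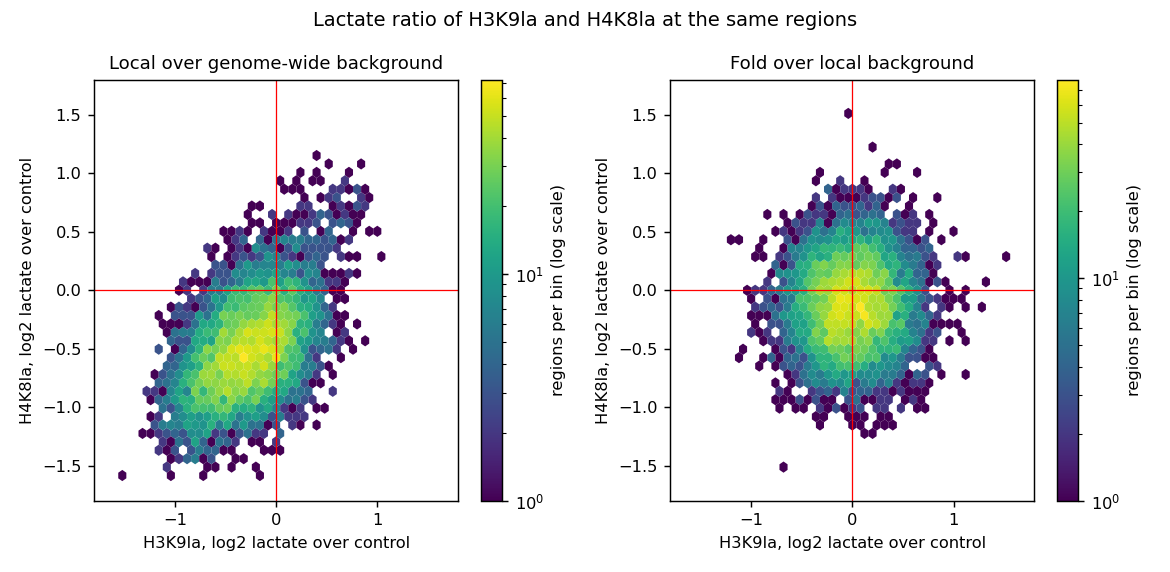
Log2 ratio of lactate over control for H3K9la (x axis) and H4K8la (y axis) at the 7268 common regions, for the local background (left) and the fold (right); colour gives the number of regions per bin. The local ratios lie along a rising band (rho 0.45), and the fold ratios form a round cloud (rho 0.020).

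Levels were compared in the same way. Across the common regions the local background of the same mark in both conditions correlated with a rho of 0.82 to 0.85. H4K8la lactate with H4K16la control reached 0.83 although neither mark nor condition is shared, and H3K9la control with H4K16la lactate had the lowest value, 0.47. For the fold the 15 pairs of libraries spanned 0.46 to 0.55, with 0.48 to 0.55 for the same mark and 0.46 to 0.53 for the same condition. These ranges overlapped.

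The single regions named next had the most extreme fold ratios of a mark among those with at least 30 fragments a pair. Their summits held from 7 to 57 fragments in the mark compared. The largest H3K9la gain in fold was found on chromosome 9 at 10061097 to 10062504, where the fold was 7.60 with lactate and 2.62 in control, from 57 and 17 fragments at the summit. Its log2 ratio over the genome-wide background was 1.95 (1.15 to 2.83), against 0.82 for H4K8la and -0.26 for H4K16la. The region was picked as the highest fold ratio among 6900, and the counting interval does not cover that choice. The summits of this region spread over 1034 bp, so its values do not all come from 1 place. A second gain on the same chromosome from 10018625 to 10019337 had 36 fragments with lactate and 15 in control for H3K9la, while the folds of the other marks were within 6.85 and 7.56. On chromosome 3 from 208396 to 209876 the H3K9la fold was 13.3 with lactate and 5.37 in control, and the 6 summits fell within 46 bp. The H3K9la losses were led by chromosome 11 from 9712061 to 9712693, with a fold of 4.17 with lactate and 9.47 in control, where the H4K16la folds were 9.11 and 10.3.

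For H4K8la the largest gain in fold, 9.90 with lactate and 3.45 in control, was on chromosome 2 from 5164065 to 5164592 and rested on 25 and 7 fragments. The next was on chromosome 15 from 7464841 to 7465788, with 10.1 with lactate and 4.31 in control. The largest loss was on chromosome 18 from 83779394 to 83780572, with 3.57 with lactate and 10.4 in control, and the H3K9la fold there was 3.82 with lactate and 6.11 in control. At this region H4K16la went the other way, with 6.78 and 5.07. For H4K16la the largest gain, 5.48 with lactate and 2.65 in control, lay on chromosome 3 from 57019217 to 57020996, where both other marks were lower with lactate. The largest loss lay on chromosome 3 from 151588675 to 151590185, with 2.84 with lactate and 8.11 in control and 14 and 31 fragments.

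Regions where all 3 marks went one way were named by their mean log2 ratio of fold. The lowest was on chromosome 10 from 13455852 to 13457004. Its H3K9la fold was 2.77 with lactate and 5.88 in control, against 3.53 and 5.27 for H4K8la, and 3.40 and 5.59 for H4K16la. Against the genome-wide background its log2 ratio was -1.38 for H3K9la (-2.46 to -0.40), -1.32 for H4K8la (-2.28 to -0.42) and -1.19 for H4K16la (-2.07 to -0.32). The region was picked for its low fold ratios, and these counting intervals do not cover that choice. Similar values were found on chromosome 19 from 27270780 to 27271795, at -1.27, -0.999 and -1.61. The highest was on chromosome 4 at 76840087 to 76841245, showing a fold of 5.17 with lactate and 3.5999 in control for H3K9la, 6.44 and 5.17 for H4K8la, and 7.50 and 3.73 for H4K16la. Against the genome-wide background the log2 ratio of this region was 0.72 for H3K9la, -0.10 for H4K8la and 0.69 for H4K16la. By that measure H4K8la was thus lower with lactate. The counting intervals of these ratios included 0 for all 3 marks, and so did those on chromosome 5 from 151724416 to 151725102. With 30 or more fragments in each pair, 1492 regions went down and 290 up in all 3 marks among 6027. These counts too can arise from unrelated marks and do not show agreement between them.

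The marks were also set against each other within a condition. With lactate the median log2 ratio of the H3K9la fold over the H4K8la fold was -0.10. It was 1.5-fold or more lower at 514 regions (7.07%) and higher at 140 (1.93%), against 6.12% and 2.05% of all regions with both peaks. In control the ratio was -0.22, with 957 regions (13.2%) lower and 70 (0.963%) higher, against 12.9% and 1.07%. H3K9la over H4K16la gave 0.025 with lactate, with 279 regions (3.84%) higher and 188 (2.59%) lower, against 4.88% and 1.98%. In control it gave -0.15, with 118 (1.62%) higher and 655 (9.01%) lower, against 1.59% and 9.09%. H4K8la over H4K16la gave 0.13 with lactate, with 620 (8.53%) higher and 106 (1.46%) lower, against 8.48% and 1.35%. In control it gave 0.071, with 540 (7.43%) higher and 220 (3.03%) lower, against 6.64% and 3.18%. By the fold the common regions thus lay near the background in each of these pairs. The local background of H3K9la was 1.5-fold or more below that of H4K8la at 529 common regions (7.28%) with lactate, against 4.67% of all regions with both peaks, and at 2489 (34.2%) in control, against 18.6%. The reverse, H3K9la above H4K8la, was found at 391 regions (5.38%) with lactate, against 7.24%, and at 537 (7.39%) in control, against 13.6%. The H4K8la local background exceeded that of H4K16la at 1026 regions (14.1%) with lactate, against 9.78%, and at 2419 (33.3%) in control, against 30%. It was lower at 25 (0.344%) with lactate, against 0.799%, and at 56 (0.771%) in control, against 1.84%. The H3K9la local background exceeded that of H4K16la at 949 regions (13.1%) with lactate, against 11.6%, and at 1579 (21.7%) in control, against 25.8%. It was lower at 14 (0.193%) with lactate, against 0.383%, and at 631 (8.68%) in control, against 6.09%.

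Regions leaning to 1 mark were named by its mean fold over both conditions relative to that of the other marks. They were picked as the extremes of all common regions. That choice favours a lean in both conditions, so the lean is a description. The strongest H3K9la lean was on chromosome 12 at 18515800 to 18516805, showing a fold of 9.72 with lactate and 9.38 in control for H3K9la, 5.89 and 5.18 for H4K8la, and 4.42 and 6.32 for H4K16la. For H4K8la it was on chromosome 17 from 43112370 to 43113886, with 7.81 with lactate and 8.75 in control for H4K8la and values of 3.64 to 5.05 in the other libraries. Its H4K8la summits held 24 and 33 fragments, and those of the other libraries 10 to 15. A further H4K8la region on chromosome 7 from 122826128 to 122827793 had 7.63 with lactate and 7.50 in control against 3.84 to 4.53 elsewhere. For H4K16la the strongest lean was on chromosome 10 from 85862500 to 85863782, with 6.29 with lactate and 6.20 in control for H4K16la, 3.54 and 4.47 for H3K9la, and 3.39 and 4.19 for H4K8la. There the local background differed too, at 1.89 times the genome-wide one in H4K16la lactate and 7.22 times in H4K8la control. In control the summit stood at 32.65 times the genome-wide background for H4K8la, 22.9 for H4K16la and 21.7 for H3K9la. With lactate the values were 11.6, 13.7 and 10.6 times. By this measure the region did not lean to H4K16la in control.

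Merging asks only for overlap, so the place of the summits inside a region is a further measure. The median distance between the summits of lactate and control was 130 bp for H3K9la, 146 bp for H4K8la and 118 bp for H4K16la. Pairs of marks within a condition lay 122 to 142 bp apart, and pairs that share neither mark nor condition 120 to 145 bp. The ranges of these 3 kinds of pair overlapped. All 6 summits fell within 150 bp at 767 regions (10.6%) and within 50 bp at 128. At 918 regions (12.6%) the 6 strongest peaks had no base in common, since regions can be chained from peaks that overlap only in part. At the other 6350 the common stretch had a median length of 349 bp.

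Strong regions had better aligned summits. With the common regions cut into 5 equal groups by mean −log10 q, the 6 summits spanned a median of 226 bp in the strongest group and 556.5 bp in the weakest, while the median width of the merged regions was 1215.5 and 1251.5 bp. All summits fell within 150 bp at 23.8% of the strongest and 2.82% of the weakest group. The rule chose regions by the same peaks, so this order is a description.

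The merged common regions had a median width of 1233 bp (quartiles 1004 and 1513), and 6444 of them (88.7%) held exactly 1 peak per library. The peak itself was narrower with lactate for H3K9la, with a median of 625 bp against 783 bp in control, and for H4K8la, with 687 against 902 bp. For H4K16la it was 657 bp with lactate and 653.5 bp in control. Peaks were 1.5-fold or more narrower with lactate at 2247 regions (30.9%) for H3K9la and 2425 (33.4%) for H4K8la, against 30.6% and 33.4% of all regions with both peaks. For H4K16la 1300 (17.9%) were wider and 1236 (17.0%) narrower, against 19.4% and 16.2%. The widest common region spanned 3651 bp on chromosome 4 from 30826428 to 30830078. It was chained from 9 peaks of modest strength, with folds from 3.43 to 4.15 and summits spread over 2507 bp. The next, on chromosome 10 from 73638010 to 73641396, had an H4K8la fold of 2.89 with lactate and 4.67 in control and a local background of 4.05 and 7.22 times the genome-wide one. On chromosome 1 from 34120345 to 34123496 a width of 3152 bp went with higher −log10 q values, from 9.21 to 20.9.

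Common regions were found on all 20 autosomes, X and Y. Chromosome 1 held most of them (918), and relative to all regions they were most frequent on chromosome 10, with 51.7 per 1000 regions (Wilson 95% interval 47.5 to 56.2), and on chromosome 20, with 51.6. Among autosomes chromosome 18 had the lowest value, 33.2 (28.8 to 38.2). The X chromosome stood below all of them. It held 65 common regions among 4904 regions, 13.3 per 1000 (10.4 to 16.9), against 41.9 per 1000 (41.0 to 42.9) on the autosomes together. Y had 1 common region.

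**Figure D4:**
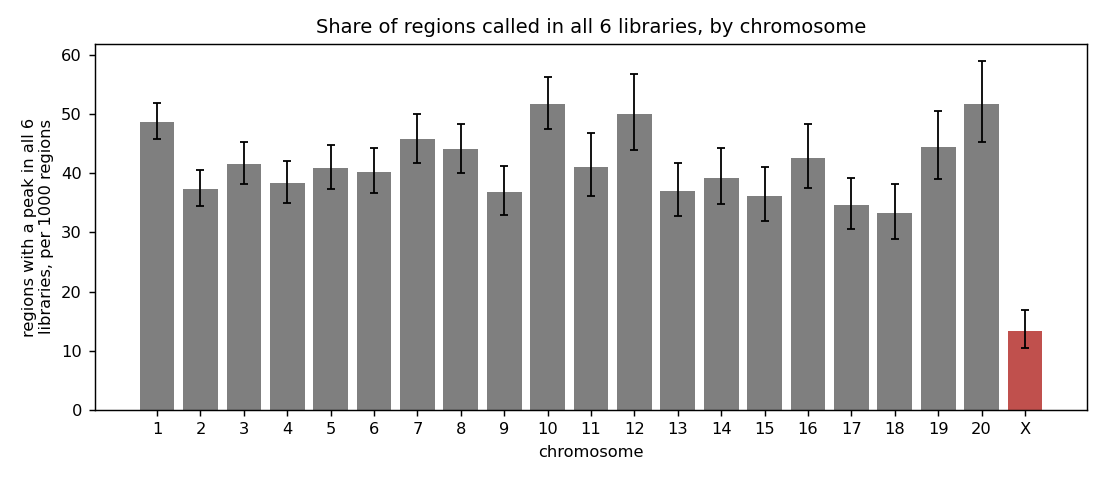
Number of common regions per 1000 merged regions for each autosome (grey) and X (red), with Wilson 95% intervals that cover counting error only. X lies at 13.3 and the autosomes between 33.2 and 51.7.

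On X a smaller share of each list lay in common regions. For H3K9la they held 7.83% of the X peaks with lactate and 6.81% in control, against 5.44% and 4.65% for H4K8la and 4.31% and 6.95% for H4K16la. The shares over all chromosomes were 11.9% to 18.2%. Of the X regions called in all 4 H4 libraries, 62.5% (52.9 to 71.2) had both H3K9la peaks too, and 76.6% (75.7 to 77.4) of such autosomal regions. For H4K8la and H4K16la peaks given the other marks the intervals of X and autosomes overlapped. Coverage of X per base could not be read from the lists.

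The 65 common regions of X also differed in their lactate ratio. The median log2 ratio of the local background on X was 0.074 for H3K9la, -0.069 for H4K8la and -0.18 for H4K16la. On the 20 autosomes it ran from -0.33 to -0.21 for H3K9la, from -0.62 to -0.43 for H4K8la and from -0.38 to -0.28 for H4K16la, so that X lay outside the autosomal range for each mark. The surroundings on X were also less covered, with a local background of 1.499 times the genome-wide one with lactate and 1.42 times in control for H3K9la, 1.76 and 2.10 times for H4K8la, and 1.55 and 1.84 times for H4K16la. In the least covered of the 5 groups of common regions the ratio was -0.22 for H3K9la, -0.32 for H4K8la and -0.14 for H4K16la. X thus lay above thinly covered regions for H3K9la and H4K8la and not for H4K16la. The floor of the local background at the genome-wide one also brings ratios of thinly covered regions nearer to 0. The part of coverage in the X ratios was not tested further. By the fold X lay at -0.048, -0.24 and -0.21, against autosomal ranges of -0.036 to 0.029, -0.15 to -0.060 and -0.21 to -0.13. By this measure X lay below the autosomal range for H4K8la, just below it for H3K9la and within it for H4K16la. Whether these gaps exceed the error of a median over 65 regions was not tested. The medians on X rest on 65 regions and have no interval.

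The peak caller's threshold, a q of about 0.05, decides membership. The weakest common region, on chromosome 13 from 68694445 to 68695817, had a −log10 q of 3.04 with lactate and 1.92 in control for H3K9la, 2.02 and 1.89 for H4K8la, and 2.27 and 2.50 for H4K16la. Just outside were strong regions that lack 1 call. The first, on chromosome 3 from 114340676 to 114341299, had no H4K8la lactate peak although H4K8la control reached a −log10 q of 23.2. For H3K9la the value was 25.5 with lactate and 22.4 in control, and for H4K16la 18.1 and 10.3. A second, on chromosome 16 from 20232336 to 20233090, lacked H4K16la control although H3K9la lactate reached 39.8. Chromosome 19 from 21912774 to 21913366 lacked H3K9la lactate, with 12.0 to 19.9 in the other libraries. Missing calls in a single library thus occurred at well supported regions, and 6478 regions had 5 of the 6 calls.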

How the data were processed

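CUT&Tag peak lists of 6 libraries, 1 per mark and condition, were used as deposited. Per the submitters' processing notes the build was rn7 and the tools were MACS2, Bowtie2, deepTools, cutadapt and FastQC. Their versions and settings, and whether IgG reads entered calling, the sources used here do not give. Each library has its own list. The authors' score is a whole number, 10 times the −log10 q without decimals for nearly all peaks, and was not used further. The authors' fold is a ratio of summit pileup to local background, and the authors' −log10 p and −log10 q are statistics of the caller for each peak. These values describe peaks within their lists; ratios between libraries compare them region by region.

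Peaks overlapping by 1 bp or more were merged. The pileup and local background of each peak were recovered as the whole number that gives both the deposited fold, read as (pileup + 1) over (background + 1), and the deposited −log10 p, read as the upper Poisson tail, within 0.002; all peaks were solved. This reading is inferred from the values. If IgG reads entered calling, the local background would come partly from them. The most frequent background of a library was taken as genome-wide. The scripts were tested on simulated data. Differences were called at 1.5-fold, with no test, since each group has 1 library. Shares have Wilson 95% intervals. Named regions follow fixed rules (highest mean −log10 q, highest lowest −log10 q at low background, width, extreme lactate ratio with at least 30 fragments a pair, lean to 1 mark, edge of the threshold). Members, lists and rules were chosen with earlier results of these data known. The local background ratio, its division into 5 groups and the comparison of X with autosomes were added after seeing the data. Python 3.11.15, numpy 2.4.6, pandas 2.3.3, scipy 1.17.1 and matplotlib 3.10.9 were used.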

Additional observations from a re-analysis of the deposited data

Results flagged for a closer look

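The median ratio of peak width between lactate and control at the 7268 common regions had opposite signs in different marks, which is why it is listed here. On the log2 scale the median ratio of lactate over control was -0.26 for H3K9la, -0.32 for H4K8la and 0.02 for H4K16la. For H4K16la this lies near 0, with 3719 regions wider and 3529 narrower with lactate. With a single library per condition, the contrast between marks was not tested. Lactate was the deeper library for H4K8la and H4K16la, with a genome-wide background of 1.55 against 1.32 and of 2.84 against 1.53 in control, and the shallower one for H3K9la, with 1.88 against 2.17. The part of depth in the widths was not tested.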

How the results depend on the processing

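The number of common regions was 1936 with peaks of −log10 q of at least 5 and 233 at 10, and between 7625 and 8850 when 1 library was left out and the other 5 were required. It stayed within 1.5 times of 7268 with a −log10 q of at least 2 (6853), a base shared by all 6 lists (6485), gaps up to 500 bp (7437), summits chained within 250 bp (4871) and equal list lengths (6287). The median log2 ratio of fold for H3K9la, H4K8la and H4K16la was -0.22, -0.60 and -0.61 with summit pileup over genome-wide background, and 0.024, -0.16 and -0.31 with the deeper library scaled to the shallower one. The scaling used the expected value without random draws. Without the added 1, an alternative chosen after seeing the data, it was 0.055, -0.087 and -0.28. With all 6 peaks at −log10 q of at least 5 it was 0.0085 for H3K9la and -0.088 for H4K8la, and without regions of raised local background -0.015 for H3K9la and -0.14 for H4K16la. The sign for H3K9la thus depends on these settings. The ratio of local background, whose alternatives were all chosen after seeing the data, was -0.15, -0.48 and -0.39 at −log10 q of at least 5 and -0.11, -0.27 and -0.19 without raised regions. Leaving out raised regions uses the values that form this ratio, so the smaller medians are in part set by that filter. For H4K8la the ratio of local background was -0.50 at regions over 20 kb from any other. Its direction was kept in these alternatives for each mark. Summit distances between lactate and control were 122, 138 and 111 bp at regions with 1 peak per list, and 89, 93 and 70 bp at −log10 q of at least 5, where the median width was 1209.5 bp. Regions raised in all 6 libraries were 3.11% of the common regions at 3 times the genome-wide background, 29.5% at 2 times and 0.234% at 5 times. The cause of these shifts was not tested. No paired analysis was possible because each group has 1 library and no test was made.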

Other observations

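The spacing of common regions was uneven, and it was not compared with that of all regions. The median distance to the nearest other common region was 57.6 kb (quartiles 25.0 and 135 kb), 152 regions (2.09%) had another within 5 kb, and 4838 (66.6%) had another within 100 kb. Of 2627 windows of 1 Mb that held any region, 1782 (67.8%) held at least 1 common region, with a median of 2. The fullest windows had 20 each. The window on chromosome 19 from 33000001 to 34000000 had 20 common regions among 121 regions, and that on chromosome 7 from 108000001 to 109000000 had 20 among 128. The window on chromosome 9 from 1000001 to 2000000 followed with 17 among 120.

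Very wide peaks often lay in common regions. Of 2456 peaks of 1500 bp or more in the 6 lists, 1311 (53.4%) did so. Of the peaks of any width, 11.9% to 18.2% of each list lay in common regions. A wider peak overlaps peaks of other lists more easily, so the merging rule itself favours a higher share. For H3K9la the numbers were 54 of 78 with lactate and 283 of 582 in control, for H4K8la 159 of 216 and 660 of 1357, and for H4K16la 88 of 137 and 67 of 86.

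The local background exceeded 3 times the genome-wide one at 15.6% of the common regions with lactate and 34.2% in control for H3K9la, 17.2% and 53.9% for H4K8la, and 4.62% and 22.8% for H4K16la. It did so in all 6 libraries at 226 regions (3.11%) and in at least 1 library at 4483 (61.7%). Among the 6478 regions with 5 calls, 2.73% were raised in all libraries with a peak and 48.2% in at least 1, and among regions with 1 call 6.45% were raised in that library. A region with more calls has more libraries in which it can be raised, so these shares do not set the common regions apart.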
